A study of Mus musculus with 18 samples.

Results

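The genes described here are 52 splicing factor genes of the mouse, the rows of a table of 16909 genes whose symbols begin with Srsf and a digit, Hnrnp, Snrp, Sf3a or Sf3b. They comprise 11 SR protein genes, 21 hnRNP genes, 11 Sm and snRNP protein genes and 9 genes for subunits of the SF3 complex. Poly(A) RNA of bone marrow macrophages was sequenced in 18 libraries of 4 groups. The UVABs and STSABs groups (n = 5 libraries each) were given apoptotic bodies (ABs), membrane-wrapped fragments shed by dying cells, of cells named hucMSC in the labels. UV had been used to induce the ABs of the UVABs group and STS those of the STSABs group, and both are named as treatments against inflammation. The LPS group (n = 5) was the positive control for inflammation, LPS being lipopolysaccharide, a bacterial product sensed by Toll-like receptor 4, and the Con group (n = 3) was mock-treated. Dose, time, mouse strain and whether the AB groups also received LPS are not stated. The labels do not tell whether replicates were separate cultures or animals, so a p-value here speaks only of how far libraries of a group scatter, which may be technical.

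Splicing removes introns from pre-mRNA in the spliceosome, whose small nuclear ribonucleoproteins (snRNPs) each carry a ring of Sm proteins on a small RNA. SF3a and SF3b are parts of the U2 snRNP and bind at the branch point of the intron. SR proteins bind exons and mostly favour their inclusion, while hnRNPs coat nascent RNA and often oppose them, so that the balance of these families sets the choice of exons. In mouse macrophages SF3a is known to affect the splicing of Myd88, an adaptor of Toll-like receptors, and hnRNP M the removal of introns from Il6. The values here are per gene and do not show which exons were used, and many of these genes make alternative transcripts that are not translated.

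Library totals ran from 17588400 to 18675300 estimated counts, and 50 of the 52 genes passed the filter on low counts. Srsf12 (0 to 5 counts per library) and the pseudogene Hnrnpa1l2-ps2 (3 counts in all) did not pass and were not tested. The 52 genes together held 0.587% ± 0.0164 of the counts in UVABs, 0.591% ± 0.0181 in STSABs, 0.634% ± 0.0133 in LPS (SD, n = 5 each) and 0.992% ± 0.0332 in Con (SD, n = 3). Levels are given as CPM, counts brought to a common library size with TMM scaling, for which the mean factors were 0.928 in UVABs, 0.932 in STSABs, 0.902 in LPS and 1.51 in Con. None of 15 macrophage markers was at 0 in a group. Their summed CPM ran from 12850 to 14030 in UVABs and 11480 to 13450 in STSABs. In LPS it ran from 14800 to 16330 and in Con from 12430 to 13370. Among them, Cd163 averaged at most 0.121 CPM in UVABs, STSABs and LPS, and 1.57 in Con. The summed CPM of 8 neutrophil markers ran from 3181 to 4204 in UVABs, 3251 to 4711 in STSABs, 1812 to 2524 in LPS and 1185 to 1481 in Con, and no marker was at 0. For 7 dendritic cell markers the sums ran from 4341 to 5544 in UVABs, 4348 to 5564 in STSABs, 4063 to 4552 in LPS and 253.6 to 283 in Con, and for 8 stromal and mesenchymal markers from 33.1 to 46.6 in UVABs, 32.3 to 51.5 in STSABs, 21.0 to 25.3 in LPS and 55.5 to 58.9 in Con, with none at 0 in a group. Most of the dendritic cell sums came from Ccr7 and Fscn1, which averaged 2492 and 1714 CPM in LPS and 142 and 85.0 in Con. Flt3, Xcr1, Clec9a and Siglech averaged at most 4.25 CPM in a group, and Clec9a was lower in LPS than in Con. Lepr held most of the stromal and mesenchymal sum in Con (47.5 CPM, against 5.28 in LPS). Summed T and NK cell markers reached at most 4.06 CPM in a library, and B cell markers at most 7.30. In bulk RNA, fewer cells of a type and less RNA per cell cannot be told apart.

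Most SR protein and SF3 subunit genes were lower in both AB groups than in LPS, while the hnRNP genes moved both ways. Of the 11 Sm and snRNP protein genes, 5 were lower and 1 higher in UVABs, and 4 and 1 in STSABs. In UVABs against LPS, 25 of the 50 tested genes were lower, 6 were higher and 19 did not pass (edgeR quasi-likelihood test, Benjamini-Hochberg adjusted p under 0.05). Over all 12465 genes tested in that comparison, 28.8% were lower and 28.6% higher. In STSABs against LPS, 24 were lower, 6 higher and 20 did not pass, against 29.0% lower and 28.4% higher over all genes. The median log2 fold change of the 50 genes was -0.13 in UVABs and -0.10 in STSABs, and that of all genes 0.0003 in UVABs and -0.0056 in STSABs. In UVABs all 5 libraries lay below all 5 LPS libraries for 22 of the 50 genes and above for 5. In STSABs they did so for 20 and 5. Over all genes 42.3% did not overlap in UVABs and 42.5% in STSABs. Under all 4 scalings tried, 23 genes were lower and 6 higher in UVABs, and 22 and 6 in STSABs. With library totals, 25.3% of all genes were lower and 31.6% higher in UVABs, and 24.8% and 32% in STSABs. The share of all genes that kept a call under all 4 is not given here. The same LPS libraries stand in both comparisons. Of 15 macrophage markers, 2 were higher and 5 lower in UVABs than in LPS, and 2 and 7 in STSABs. The 8 neutrophil markers were all higher in each AB group than in LPS. Of 5 dendritic cell markers tested, 3 were higher and 0 lower in each AB group, and of 5 stromal and mesenchymal markers tested 2 were higher and 0 lower in UVABs, and 2 and 1 in STSABs. The part of these markers in the differences was not tested.

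**Figure D1:**
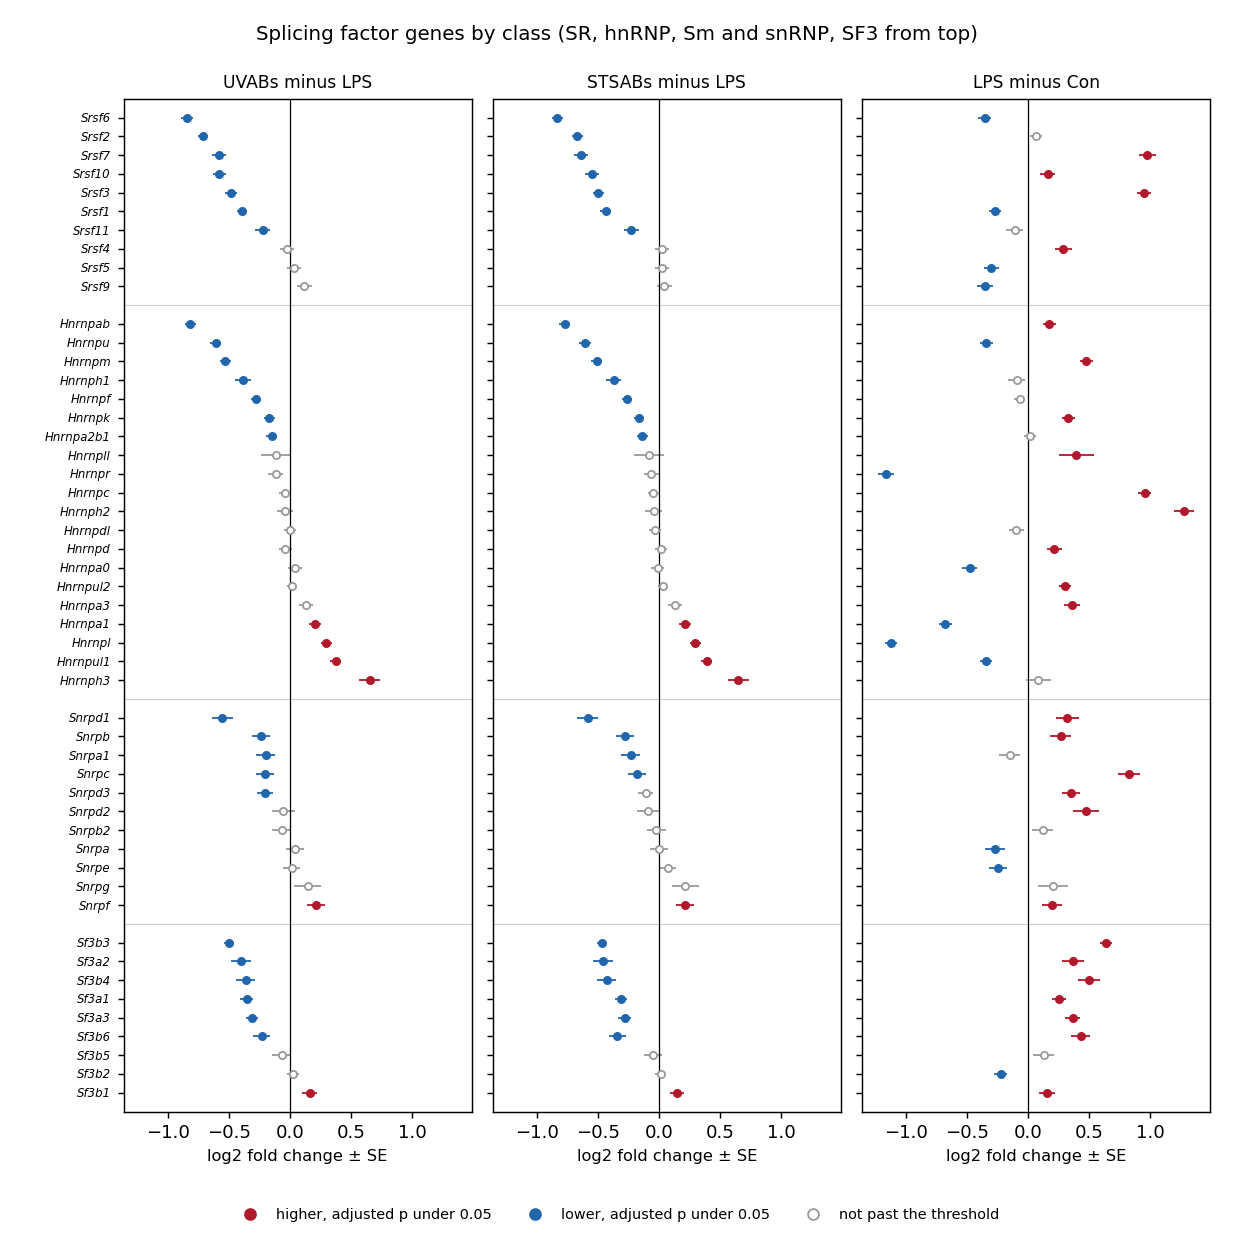
Log2 fold changes ± SE (edgeR quasi-likelihood fit, x axis) of the 50 tested genes (rows, by class from top: SR, hnRNP, Sm and snRNP, SF3), in UVABs against LPS, STSABs against LPS and LPS against Con, with filled points past the adjusted threshold. In the left and middle panels 7 of 10 SR genes have filled points below 0, with Srsf6 lowest at -0.84 and -0.83; in the right panel values run from -1.17 (Hnrnpr) to 1.28 (Hnrnph2).

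Of the 10 SR protein genes tested, 7 were lower in UVABs than in LPS, 0 were higher and 3 did not pass, with a median log2 fold change of -0.44. In STSABs the counts were also 7, 0 and 3, with a median of -0.47. Srsf6, an SR protein that binds exonic enhancers, had 59.7, 58.6, 66.2, 60.0 and 62.4 CPM in UVABs, 59.5, 58.7, 62.7, 67.9 and 59.9 in STSABs, 109.8, 110.3, 109, 109 and 112 in LPS and 138, 144 and 141 in Con. Every AB library lay below every LPS library, and every LPS library below every Con library. The log2 fold changes were -0.84 ± 0.05 in UVABs (adjusted p = 4.49e-12) and -0.83 ± 0.05 in STSABs (adjusted p = 5.36e-12) against LPS, and the level fell by 44.1% in UVABs and fell by 43.8% in STSABs.

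Srsf2, known as SC35 and a marker of nuclear speckles, had 110.0, 100.4, 110.5, 110.5 and 110.5 CPM in UVABs, 116, 113, 111, 109 and 108 in STSABs, 181, 179.7, 179, 177 and 169.8 in LPS and 166, 164 and 179.8 in Con. The AB libraries lay apart from those of LPS and Con, which overlapped. It changed by -0.71 ± 0.04 in UVABs (adjusted p = 1.75e-11) and -0.67 ± 0.04 in STSABs (adjusted p = 3.97e-11) against LPS. Srsf7, an SR protein that also helps mRNA leave the nucleus, had 82.3, 77.5, 79.0, 85.2 and 74.9 CPM in UVABs, 78.0, 69.0, 77.4, 84.1 and 74.8 in STSABs, 135, 113, 119.9, 112 and 116 in LPS and 63.6, 59.0 and 59.2 in Con. Each AB library was below each LPS library and above each Con library. The differences of Srsf7 were -0.58 ± 0.06 in UVABs (adjusted p = 3.26e-08) and -0.64 ± 0.06 in STSABs (adjusted p = 8.03e-09) against LPS.

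Srsf3, the smallest SR protein, which shares the export role, had 186, 174, 192, 183 and 179 CPM in UVABs, 182, 174, 181, 187 and 179 in STSABs, 279, 245, 238, 252 and 260.1 in LPS and 140.1, 129 and 127 in Con. AB libraries stood between LPS and Con without overlap, and the changes were -0.48 ± 0.05 in UVABs (adjusted p = 1.98e-08) and -0.50 ± 0.05 in STSABs (adjusted p = 1.17e-08) against LPS. Srsf10, which turns from activator to repressor of splicing when it loses its phosphates, had 46.7, 42.0, 46.6, 50.0 and 51.4 CPM in UVABs, 46.6, 46.1, 47.1, 50.9 and 50.4 in STSABs, 75.6, 71.6, 65.8, 68.4 and 71.3 in LPS and 65.5, 63.9 and 60.1 in Con. It fell to below both LPS and Con (-0.58 ± 0.06 in UVABs (adjusted p = 1.74e-08) and -0.55 ± 0.06 in STSABs (adjusted p = 3.33e-08) against LPS). Srsf1, the SR protein first purified as a splicing factor, had 93.1, 83.8, 87.5, 91.5 and 89.5 CPM in UVABs, 84.9, 80.7, 87.5, 89.5 and 88.9 in STSABs, 115, 119.7, 116, 116 and 118 in LPS and 144, 145 and 133 in Con. Srsf1 was lower in the AB groups than in LPS without overlap (-0.39 ± 0.04 in UVABs (adjusted p = 1.29e-07) and -0.44 ± 0.04 in STSABs (adjusted p = 2.56e-08) against LPS).

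Srsf11 also fell (-0.22 ± 0.06 in UVABs and -0.23 ± 0.06 in STSABs). The remaining SR genes, Srsf4, Srsf5 and Srsf9, did not pass, with values between -0.02 and 0.12 in UVABs and between 0.02 and 0.04 in STSABs. Srsf5, an SR protein, had 212, 205, 221, 219 and 215 CPM in UVABs, 212, 187, 232, 224 and 207 in STSABs, 223, 203, 207, 211 and 202 in LPS and 284, 252 and 236 in Con. The AB and LPS libraries overlapped (adjusted p = 0.61 in UVABs and 0.762 in STSABs), and all lay below the Con libraries. Srsf9 passed in UVABs without LPS replicate 3 (0.15) and with library totals (0.16).

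**Figure D2:**
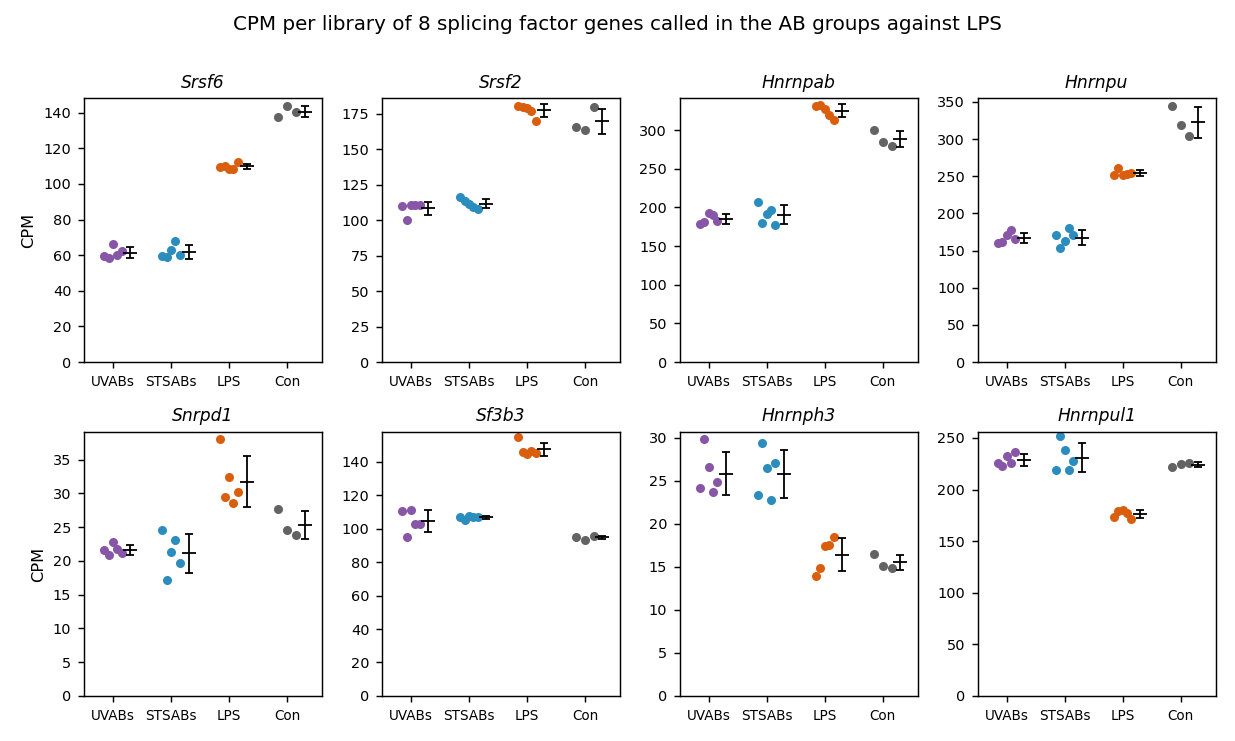
CPM (y axis, from 0) of 8 splicing factor genes in each library of UVABs, STSABs, LPS and Con, with mean ± SD beside the points (n = 5, 5, 5 and 3). Srsf6, Srsf2, Hnrnpab, Hnrnpu, Snrpd1 and Sf3b3 sit lower in both AB groups than in LPS, and Hnrnph3 and Hnrnpul1 higher, without overlap.

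Most SF3 subunits fell, with 6 of 9 lower, 1 higher and 2 not passing in each AB group against LPS, and a median of -0.31 in each. Sf3b3, the largest change among them, had 111, 95.2, 111, 103 and 103 CPM in UVABs, 107, 106, 108, 107 and 107 in STSABs, 155, 146, 145, 147 and 145 in LPS and 95.1, 93.5 and 95.8 in Con. Its AB libraries all lay below the LPS libraries (-0.50 ± 0.04 in UVABs (adjusted p = 3.41e-09) and -0.46 ± 0.04 in STSABs (adjusted p = 8.99e-09) against LPS). Sf3b4, which contacts pre-mRNA upstream of the branch point, had 40.4, 48.6, 42.9, 42.0 and 47.2 CPM in UVABs, 42.8, 52.0, 41.3, 36.3 and 38.7 in STSABs, 54.5, 59.7, 59.0, 52.5 and 58.4 in LPS and 37.0, 39.2 and 44.3 in Con. It fell by the same test (-0.36 ± 0.08 in UVABs (adjusted p = 0.000567) and -0.43 ± 0.08 in STSABs (adjusted p = 9.72e-05) against LPS), and the AB libraries lay below those of LPS. Sf3a3, a subunit of SF3a, had 40.1, 42.5, 45.6, 40.1 and 40.0 CPM in UVABs, 45.0, 41.4, 41.3, 42.4 and 42.3 in STSABs, 54.8, 50.1, 52.3, 49.9 and 51.1 in LPS and 43.4, 38.5 and 38.6 in Con. Its AB and LPS libraries did not overlap (-0.31 ± 0.05 in UVABs (adjusted p = 2.58e-05) and -0.28 ± 0.05 in STSABs (adjusted p = 7.59e-05) against LPS).

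Sf3a1 and Sf3a2, the other SF3a subunits, changed by -0.35 ± 0.05 and -0.40 ± 0.08 in UVABs and by -0.31 ± 0.05 and -0.46 ± 0.08 in STSABs, and Sf3b6, a small protein at the branch point, by -0.23 ± 0.07 and -0.34 ± 0.07. With replicates 1 to 3 only, Sf3b6 did not pass in UVABs (-0.22). Sf3b2 and Sf3b5 did not pass. Sf3b1, the subunit that grips the branch point and is mutated in myelodysplastic syndromes, had 313, 300.2, 329, 349.6 and 342 CPM in UVABs, 303, 288, 325, 347 and 355 in STSABs, 296, 294, 274, 299 and 296 in LPS and 279, 265 and 242 in Con. It was the SF3 subunit that rose (0.16 ± 0.06 in UVABs (adjusted p = 0.0226) and 0.15 ± 0.06 in STSABs (adjusted p = 0.0351) against LPS), and its libraries lay above those of LPS in UVABs and overlapped them in STSABs. The call was lost in UVABs without LPS replicate 3 (0.14) or UVABs replicate 4 or 5 (0.14 and 0.15). In STSABs it was lost without LPS replicate 2 or 3 (0.15 and 0.13) or STSABs replicate 3, 4 or 5 (0.15, 0.12 and 0.11). With replicates 1 to 3 it was lost in both (0.13 in UVABs and 0.09 in STSABs).

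Of the hnRNPs, 7 of 20 were lower, 4 higher and 9 did not pass in each AB group against LPS, with medians of -0.04 in UVABs and -0.04 in STSABs. These counts are not far from the shares over all genes, 28.8% lower and 28.6% higher in UVABs, and 29.0% and 28.4% in STSABs. Hnrnpab, an A/B-type hnRNP, had 178, 181, 193, 190.2 and 183 CPM in UVABs, 207, 179, 192, 197 and 178 in STSABs, 331, 333, 327, 320.0 and 313 in LPS and 300.2, 285 and 279.8 in Con. Its AB libraries were below all LPS and Con libraries, with changes of -0.81 ± 0.05 in UVABs (adjusted p = 6.25e-12) and -0.77 ± 0.05 in STSABs (adjusted p = 1.48e-11) against LPS. Hnrnpu, which ties RNA to chromatin and is also called scaffold attachment factor A, had 160.1, 161, 171, 177 and 165 CPM in UVABs, 170.4, 153, 162, 181 and 171 in STSABs, 251, 262, 252, 253 and 254 in LPS and 345, 318 and 304 in Con. It fell without overlap (-0.61 ± 0.05 in UVABs (adjusted p = 9.04e-10) and -0.60 ± 0.05 in STSABs (adjusted p = 9.8e-10) against LPS).

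Hnrnpul1, a relative of hnRNP U with a role in the DNA damage response, had 225, 223, 232, 225 and 237 CPM in UVABs, 219, 251, 238, 218 and 228 in STSABs, 173, 179, 180.0, 177 and 171 in LPS and 222, 225 and 226 in Con. Here the AB libraries lay above those of LPS and overlapped those of Con (0.37 ± 0.04 in UVABs (adjusted p = 1.88e-07) and 0.39 ± 0.04 in STSABs (adjusted p = 1.05e-07) against LPS). Hnrnph3, of the H/F subfamily that binds runs of G, had 24.2, 29.8, 26.5, 23.7 and 24.9 CPM in UVABs, 23.3, 29.4, 26.4, 22.7 and 27.0 in STSABs, 13.9, 14.8, 17.4, 17.5 and 18.4 in LPS and 16.5, 15.1 and 14.9 in Con. It was the largest rise among the 50 genes in each comparison (0.65 ± 0.09 in UVABs (adjusted p = 1.74e-06) and 0.65 ± 0.09 in STSABs (adjusted p = 1.79e-06) against LPS), while LPS and Con overlapped. Its relatives Hnrnph1 (-0.38 ± 0.06 in UVABs and -0.37 ± 0.06 in STSABs) and Hnrnpf (-0.28 ± 0.04 and -0.26 ± 0.04) fell, and Hnrnph2 did not pass (-0.04 ± 0.07 and -0.04 ± 0.07).

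Hnrnpl, which binds CA repeats, had 77.7, 73.8, 77.1, 79.2 and 73.3 CPM in UVABs, 73.4, 74.0, 79.5, 76.7 and 77.1 in STSABs, 56.0, 63.8, 66.8, 60.8 and 62.2 in LPS and 134, 131 and 139.5 in Con. The AB libraries stood between LPS and Con (0.30 ± 0.05 in UVABs (adjusted p = 1.51e-05) and 0.30 ± 0.05 in STSABs (adjusted p = 1.57e-05) against LPS). Hnrnpa1, a repressor that binds exonic silencers, had 299.9, 308, 326, 295 and 301 CPM in UVABs, 305, 299, 338, 302 and 295 in STSABs, 278, 267, 249, 268 and 265 in LPS and 441, 427 and 408 in Con. It too lay between LPS and Con without overlap (0.21 ± 0.05 in UVABs (adjusted p = 0.000727) and 0.21 ± 0.05 in STSABs (adjusted p = 0.000495) against LPS). Near-identical processed copies of Hnrnpa1 exist in the genome, and how the authors counted shared reads is not given, so its level is uncertain to that extent.

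Hnrnpa2b1, an A/B hnRNP known as a carrier of RNA and a reader of modified RNA, had 419, 399, 415, 408 and 397 CPM in UVABs, 421, 381, 417, 428 and 405 in STSABs, 482, 441, 422, 462 and 449 in LPS and 459.6, 436 and 443 in Con. It fell a little (-0.15 ± 0.04 in UVABs (adjusted p = 0.00742) and -0.14 ± 0.04 in STSABs (adjusted p = 0.0113) against LPS) with no overlap of UVABs and LPS. In STSABs the call was lost with library totals (-0.09) and in a fit of STSABs and LPS alone (-0.12). Hnrnpk, which binds runs of C, had 404, 381, 415, 415 and 407 CPM in UVABs, 418, 372, 413, 420.1 and 406 in STSABs, 477, 466, 444, 451 and 434 in LPS and 371, 366 and 349.6 in Con. It was lower without overlap (-0.17 ± 0.04 in UVABs (adjusted p = 0.00265) and -0.16 ± 0.04 in STSABs (adjusted p = 0.00328) against LPS). Hnrnpm fell more (-0.53 ± 0.04 in UVABs and -0.51 ± 0.04 in STSABs), with 149.8 ± 4.94 CPM in UVABs, 152 ± 4.60 in STSABs, 216 ± 5.79 in LPS and 155 ± 10.8 in Con.

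Hnrnpll, an hnRNP L relative known for CD45 splicing in T cells, had 134, 75.6, 131, 130.4 and 129.8 CPM in UVABs, 128, 86.9, 135, 132 and 131 in STSABs, 132, 129.5, 126, 121 and 139 in LPS and 98.0, 103 and 95.3 in Con. The libraries numbered 2 of both AB groups were far below their fellows, and the change did not pass (-0.11 ± 0.12 in UVABs (adjusted p = 0.457) and -0.08 ± 0.12 in STSABs (adjusted p = 0.595) against LPS). Without both of those libraries it was 0.02 in each comparison. Hnrnpa0, Hnrnpa3, Hnrnpc, Hnrnpd, Hnrnpdl, Hnrnpr and Hnrnpul2 did not pass either, with values from -0.12 to 0.13 in UVABs and -0.06 to 0.13 in STSABs. For Hnrnpa3 (adjusted p = 0.0529 in UVABs and 0.0524 in STSABs) this depended on the setting. It passed as higher in both comparisons with the DESeq2 test (0.14 in UVABs and 0.14 in STSABs), with each of the 3 other scalings (up to 0.17 and 0.18 with library totals), with the stricter filter, in fits of only the groups compared, with the replicate block, without both AB libraries numbered 2 (0.16 and 0.19) and without LPS replicate 4, STSABs replicate 2 or UVABs replicate 2. It did not pass with limma-voom, with no filter, with replicates 1 to 3 or without any other single library.

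Among the Sm and snRNP protein genes 5 of 11 were lower, 1 was higher and 5 did not pass in UVABs, and 4, 1 and 6 in STSABs, with medians of -0.06 in UVABs and -0.09 in STSABs. Processed copies of Sm genes exist in the genome as well, and their levels carry the same uncertainty as that of Hnrnpa1. Snrpd1, a protein of the Sm ring, had 21.6, 20.8, 22.8, 21.7 and 21.2 CPM in UVABs, 24.5, 17.1, 21.3, 23.2 and 19.6 in STSABs, 38.0, 29.4, 32.4, 28.5 and 30.2 in LPS and 27.7, 24.6 and 23.8 in Con. Its AB libraries lay below all LPS libraries (-0.55 ± 0.09 in UVABs (adjusted p = 1.37e-05) and -0.58 ± 0.09 in STSABs (adjusted p = 6.67e-06) against LPS). Snrpb, which encodes the ring proteins B and B', had 83.5, 96.4, 92.8, 85.2 and 87.4 CPM in UVABs, 90.7, 101, 85.5, 74.5 and 79.5 in STSABs, 106, 101, 108, 98.5 and 111 in LPS and 77.7, 86.0 and 98.0 in Con. It fell less (-0.23 ± 0.07 in UVABs (adjusted p = 0.00908) and -0.28 ± 0.07 in STSABs (adjusted p = 0.0025) against LPS), and its AB and LPS libraries overlapped in STSABs. With replicates 1 to 3 only, the calls were lost (-0.20 in UVABs and -0.17 in STSABs).

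Snrpf, another ring protein, had 31.7, 39.3, 33.4, 30.4 and 32.5 CPM in UVABs, 37.1, 32.9, 33.4, 31.6 and 31.8 in STSABs, 28.5, 26.1, 29.4, 29.5 and 30.5 in LPS and 27.9, 22.5 and 25.2 in Con. It rose (0.22 ± 0.07 in UVABs (adjusted p = 0.0152) and 0.21 ± 0.07 in STSABs (adjusted p = 0.0169) against LPS), without overlap in STSABs and with overlap in UVABs. The call was lost without LPS replicate 2 (0.18 in UVABs and 0.18 in STSABs). In UVABs it was also lost without UVABs replicate 2 (0.15) and without both AB libraries numbered 2 (0.15). In STSABs it was also lost without STSABs replicate 1 (0.17). Snrpa1, a U2 snRNP protein, changed by -0.20 ± 0.08 in UVABs and -0.23 ± 0.08 in STSABs, the call in UVABs being lost without LPS replicate 1, 2 or 4 or UVABs replicate 4 (-0.20, -0.19, -0.16 and -0.17), with library totals (-0.16) and with replicates 1 to 3 (-0.17). Snrpd3 passed in UVABs (-0.20 ± 0.06, but -0.09 and not past the threshold with replicates 1 to 3) and not in STSABs (-0.11 ± 0.06). Its difference between UVABs and STSABs did not pass either (-0.09 ± 0.06, adjusted p = 1).

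Snrpc, a U1 snRNP protein that helps to recognise the start of introns, had 46.0, 42.6, 43.9, 44.9 and 42.0 CPM in UVABs, 47.8, 45.3, 46.1, 44.0 and 39.4 in STSABs, 54.7, 46.5, 57.8, 44.9 and 48.5 in LPS and 24.9, 27.7 and 32.8 in Con. It was lower in the AB groups (-0.20 ± 0.08 in UVABs (adjusted p = 0.0264) and -0.18 ± 0.08 in STSABs (adjusted p = 0.0454) against LPS), with AB and LPS libraries that overlapped. In UVABs the call was lost without LPS replicate 1 or 3 (-0.17 and -0.15) or UVABs replicate 5 (-0.19) and with library totals (-0.16). In STSABs it was lost without any one of Con replicate 2, LPS replicate 1 or 3, STSABs replicate 2, 3, 4 or 5, or UVABs replicate 1, 3 or 4, at values from -0.19 to -0.13. It was also lost there with the DESeq2 test (-0.17), with each of the 3 other scalings (-0.13 with library totals), with no filter or a stricter one, in a fit of only the groups compared (-0.16) and with replicates 1 to 3 (-0.18). Snrpa, Snrpb2, Snrpd2, Snrpe and Snrpg did not pass in either comparison. Snrpg (0.15 ± 0.11 in UVABs and 0.21 ± 0.11 in STSABs) passed as higher with replicates 1 to 3 only (0.37 and 0.43) and, in STSABs, with library totals (0.26).

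The 250 bases before the start of the genes were read from RefSeq (GRCm38.p6), which holds a promoter for 46 of the 52 genes, 60 promoters in all. They are shown for the 2 largest falls, the SF3 subunit that fell most and the 2 largest rises in the AB groups against LPS among genes with 1 listed promoter. Each runs 5′ to 3′ on the strand of its gene. Capitals mark matches to 6 short motifs, searched on both strands, none of which contains another. Coordinates of Srsf6 are chr2:162931258-162931507, plus strand, those of Hnrnpab chr11:51606882-51607131, minus strand, and those of Sf3b3 chr8:110846804-110847053, minus strand. Hnrnph3 is at chr10:63023850-63024099, minus strand, and Hnrnpul1 at chr7:25754760-25755009, minus strand.
Srsf6: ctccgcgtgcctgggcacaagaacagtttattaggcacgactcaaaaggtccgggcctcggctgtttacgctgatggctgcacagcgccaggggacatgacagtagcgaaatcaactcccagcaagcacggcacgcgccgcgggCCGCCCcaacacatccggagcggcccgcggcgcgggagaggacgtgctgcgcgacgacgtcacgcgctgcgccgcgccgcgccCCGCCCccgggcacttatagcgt
Hnrnpab: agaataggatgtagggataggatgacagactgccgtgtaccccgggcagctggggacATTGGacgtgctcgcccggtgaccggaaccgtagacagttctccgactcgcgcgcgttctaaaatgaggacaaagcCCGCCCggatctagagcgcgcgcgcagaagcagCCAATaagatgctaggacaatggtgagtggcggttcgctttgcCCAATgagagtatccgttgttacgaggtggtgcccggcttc
Sf3b3: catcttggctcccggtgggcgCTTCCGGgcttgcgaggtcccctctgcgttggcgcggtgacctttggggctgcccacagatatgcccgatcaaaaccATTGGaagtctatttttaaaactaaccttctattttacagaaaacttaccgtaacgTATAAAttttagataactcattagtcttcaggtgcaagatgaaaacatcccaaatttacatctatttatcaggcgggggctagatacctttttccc
Hnrnph3: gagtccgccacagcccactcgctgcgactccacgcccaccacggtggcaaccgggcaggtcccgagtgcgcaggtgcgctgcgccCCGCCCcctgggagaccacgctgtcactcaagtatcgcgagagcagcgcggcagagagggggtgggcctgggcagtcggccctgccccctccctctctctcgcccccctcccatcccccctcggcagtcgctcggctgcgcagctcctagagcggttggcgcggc
Hnrnpul1: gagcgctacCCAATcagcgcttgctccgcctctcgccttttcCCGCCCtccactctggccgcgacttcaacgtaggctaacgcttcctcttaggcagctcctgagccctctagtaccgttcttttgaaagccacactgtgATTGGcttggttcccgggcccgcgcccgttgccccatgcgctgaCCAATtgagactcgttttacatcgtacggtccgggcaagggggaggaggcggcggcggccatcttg
In Srsf6 and Hnrnph3 the capitals are GC boxes, in Hnrnpab and Hnrnpul1 GC boxes and CCAAT, and in Sf3b3 the ETS motif, CCAAT and the TATA box.

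The ETS motif CCGGAAG stood in 31.7% of the 60 promoters and in 6.91% of all 32851 listed promoters. It was in 6 of 7 SF3 genes with a promoter (Sf3a1, Sf3a2, Sf3a3, Sf3b2, Sf3b3 and Sf3b6), 4 of 11 SR genes, 3 of 9 Sm and snRNP genes and 2 of 19 hnRNP genes. The GC box GGGCGG stood in 70.0% of the 60 promoters against 32.7% of all. For CCAAT the shares were 45.0% and 33.8%. The E-box CACGTG was in 8.33% against 6.02%. The TATA box TATAAA was in 6 of the 60 promoters and in 12.4% of all. For the cAMP response element TGACGTCA the shares were 3.33% and 1.55%. The median GC content was 61.2% in these promoters and 52.4% in all. Of 30 promoters of genes lower in both AB groups, 11 held the ETS motif, 20 the GC box and 13 CCAAT. Of 6 promoters of genes higher in both, these numbers were 0, 5 and 4. The ETS share of the 30 is near the 31.7% of all 60, and 6 promoters are too few to set against it. Promoters rather than genes are counted, and 8 genes have 2 or more. Matches of letters are descriptions and show no binding.

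UVABs and STSABs were then compared directly. None of the 50 genes passed the test between them (edgeR quasi-likelihood, Benjamini-Hochberg), and 0% of all 12465 genes tested were called. At an unadjusted p under 0.05 there were 198 genes, of which 0 were among the 50, and DESeq2 and limma-voom also called 0. The log2 fold changes of UVABs minus STSABs ran from -0.09 (Snrpd3) to 0.11 (Sf3b6). Their 95% intervals all lay within 0.5 either way, and 47 of 50 within 0.25, the lowest bound being -0.30 (Snrpg) and the highest 0.26 (Sf3b6). Srsf6 differed by -0.01 ± 0.05, Hnrnpab by -0.04 ± 0.05 and Hnrnph3 by 0.00 ± 0.08. Differences smaller than these intervals may have been missed.

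**Figure D3:**
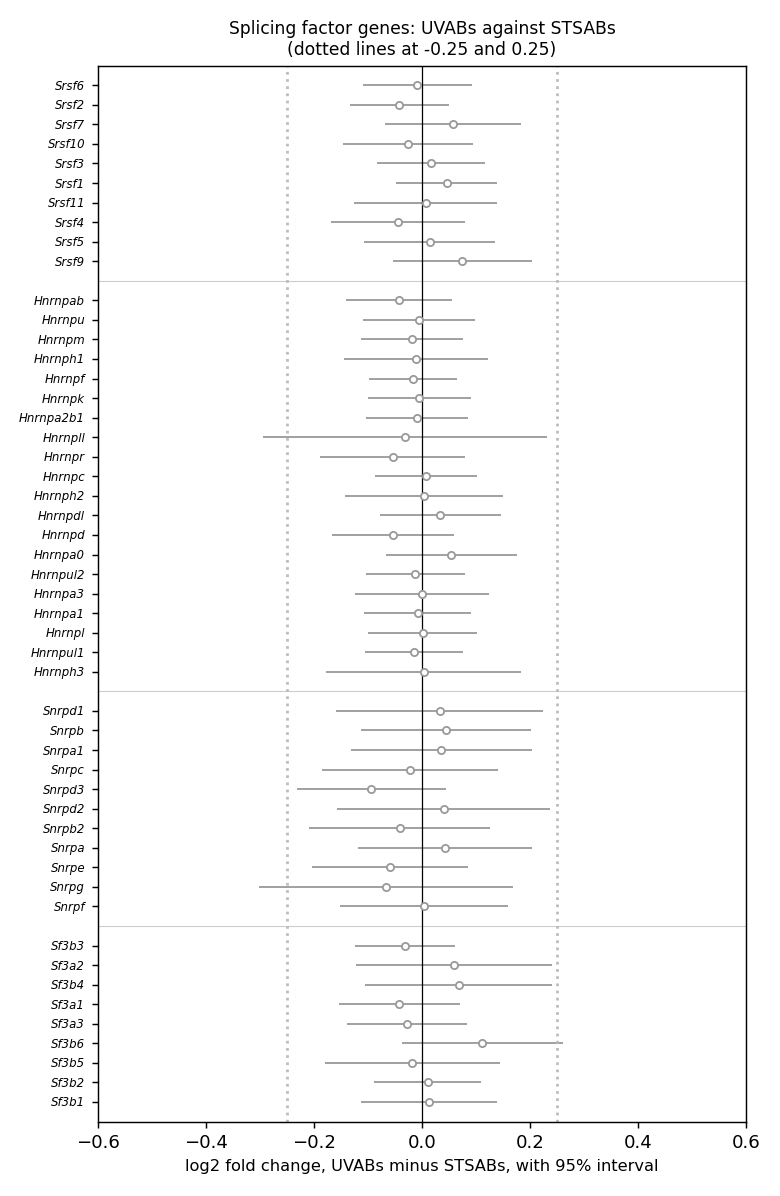
Log2 fold change of UVABs minus STSABs (x axis) with its 95% interval for the 50 tested genes, by class. All points lie between -0.09 and 0.11 and are open, since 0 passed the threshold, and 47 intervals stay within the dotted lines.

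LPS was also compared with Con, which asks how these genes differed in the inflamed control. Hnrnph2, Hnrnpc, Srsf3 and Srsf7 were higher in LPS, and Hnrnpr, Hnrnpl and Hnrnpa1 lower. Of the 50 genes 26 were higher, 13 lower and 11 did not pass (edgeR quasi-likelihood, Benjamini-Hochberg), against 40.0% higher and 43.0% lower over all 12465 genes. Groups did not overlap for 24 genes above and 15 below, against 80.0% of all genes in either direction. The median was 0.17 for the 50 genes and -0.03 for all genes, a gap of 0.20. This split depends on scaling. Upper-quartile scaling moved the median of all genes to -0.31 and left 8 of the 50 higher and 20 lower, against 30.1% higher and 53.5% lower over all genes. Library totals alone moved it to -0.78 and left 4 and 45, against 19.0% and 70.6% over all genes. Of 5 dendritic cell markers tested, 3 were higher and 1 lower in LPS than in Con. For 8 neutrophil markers these numbers were 6 and 1, and for 15 macrophage markers 6 and 7. The part of these markers was not tested. Under TMM, 32 of the 50 genes were above the median of all genes. Scaling moves all genes by nearly the same amount, so this count and the gap had to stay nearly alike in all 4 scalings. Genes that were higher under all 4 scalings were Hnrnpc, Hnrnph2, Srsf3 and Srsf7. Those that were lower under all 4 were Hnrnpa0, Hnrnpa1, Hnrnpl, Hnrnpr, Hnrnpu, Hnrnpul1, Sf3b2, Snrpa, Snrpe, Srsf1, Srsf5, Srsf6 and Srsf9. No share of all genes called under all 4 is given here to set beside these lists. The call of Snrpa was lost without Con replicate 3 (-0.18) and that of Snrpe without Con replicate 1 (-0.14).

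Hnrnph2, of the H/F subfamily, had 154, 133, 154, 167 and 158 CPM in UVABs, 154, 124, 159, 166 and 159.7 in STSABs, 155, 153, 154, 159 and 165 in LPS and 67.7, 67.0 and 59.7 in Con. The LPS libraries all lay above the Con libraries, at 1.28 ± 0.08 (adjusted p = 2.41e-12) and still 0.53 with library totals. Hnrnpc, which binds runs of U and keeps cryptic exons out of mRNA, had 279.6, 274, 281, 267 and 273 CPM in UVABs, 279, 267, 282, 270.4 and 271 in STSABs, 307, 271, 276, 267 and 294 in LPS and 154, 143 and 141 in Con. It rose by 0.95 ± 0.05 (adjusted p = 1.35e-13), with no overlap of LPS and Con, and AB libraries overlapped those of LPS. Srsf3 rose by 0.95 ± 0.06 (adjusted p = 4.11e-13) and Srsf7 by 0.98 ± 0.07 (adjusted p = 1.18e-11); their levels are given with the SR genes. With library totals the rises of these 3 genes were 0.21, 0.20 and 0.23, all past the threshold.

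Snrpc was next (0.83 ± 0.09, adjusted p = 1.48e-08), with no overlap of LPS and Con, but its value fell to 0.08 with library totals and no longer passed. Hnrnpr, a close relative of Syncrip, had 23.0, 23.5, 25.4, 25.4 and 22.9 CPM in UVABs, 22.1, 24.6, 23.9, 26.8 and 27.4 in STSABs, 26.8, 25.0, 24.4, 25.5 and 28.5 in LPS and 59.4, 59.0 and 56.9 in Con. LPS libraries lay below all Con libraries (-1.17 ± 0.07, adjusted p = 2.16e-13). Hnrnpl fell by 1.12 ± 0.05 on the log2 scale (adjusted p = 6.27e-15) and Hnrnpa1 by 0.68 ± 0.05 (adjusted p = 5.89e-11), each without overlap.

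Hnrnpa0, a binder of AU-rich elements that is phosphorylated after LPS in macrophages, had 100.5, 102, 113, 97.1 and 96.3 CPM in UVABs, 103, 104, 100.5, 90.6 and 93.1 in STSABs, 89.3, 98.9, 101, 109 and 95.6 in LPS and 139, 138 and 137 in Con. The level was lower in LPS than in Con without overlap (-0.48 ± 0.06, adjusted p = 4.18e-07). Srsf6 fell as well (-0.36 ± 0.05, adjusted p = 1.29e-06). Hnrnpll, by contrast, was 0.39 ± 0.14 (adjusted p = 0.0142), but -0.35 with library totals.

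**Figure D4:**
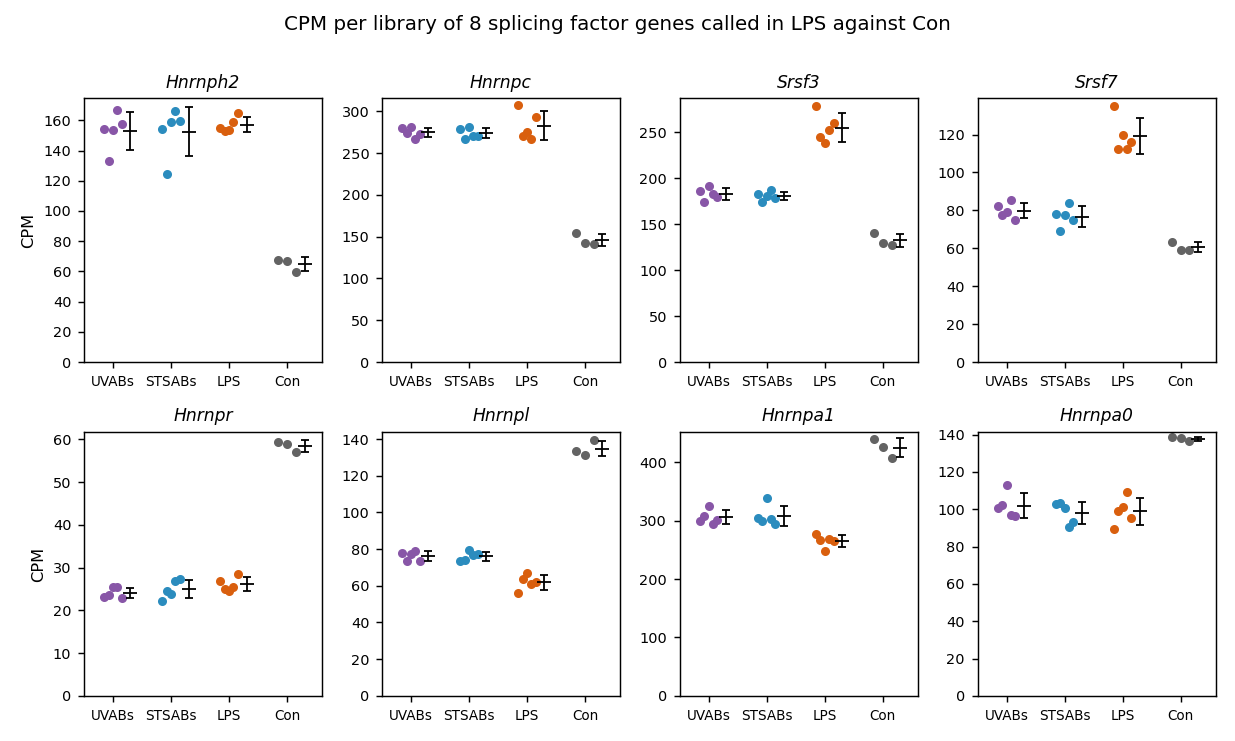
CPM (y axis, from 0) of 8 splicing factor genes in each library of UVABs, STSABs, LPS and Con, with mean ± SD beside the points (n = 5, 5, 5 and 3). The upper row shows genes higher in LPS than in Con under all 4 scalings, and the lower row genes lower in LPS under all 4, such as Hnrnpr at 26.1 CPM on average in LPS and 58.4 in Con.

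Several genes that did not pass in the AB groups against LPS differed between LPS and Con with TMM scaling. Srsf4 averaged 48.1 ± 3.83 CPM in UVABs, 49.7 ± 3.36 in STSABs, 48.8 ± 2.27 in LPS and 40.0 ± 0.638 in Con, and Srsf9 35.9 ± 1.72 in UVABs, 34.1 ± 3.06 in STSABs, 33.0 ± 1.99 in LPS and 42.2 ± 0.551 in Con. Srsf4 was 0.29 ± 0.07 in LPS against Con but -0.46 with library totals, and Srsf9 was lower under all 4 scalings (-0.35 ± 0.07). Hnrnpd, also called AUF1, which binds AU-rich elements of cytokine mRNAs, averaged 99.4 ± 4.79 CPM in UVABs, 103 ± 7.22 in STSABs, 102 ± 3.00 in LPS and 88.0 ± 6.29 in Con. Its value in LPS against Con was 0.21 ± 0.06, and -0.53 with library totals. Snrpd2, a protein of the Sm ring, averaged 31.8 ± 4.63 CPM in UVABs, 30.9 ± 3.19 in STSABs, 32.9 ± 2.34 in LPS and 23.7 ± 2.85 in Con (0.47 ± 0.11, and -0.27 with library totals). Sf3b2, an SF3b subunit, averaged 124 ± 3.07 CPM in UVABs, 123 ± 5.50 in STSABs, 122 ± 5.56 in LPS and 143 ± 8.70 in Con, and was lower in LPS than in Con under all 4 scalings (-0.23 ± 0.05).

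By class, the genes higher, lower and not passing in LPS against Con numbered 4, 4 and 2 of the SR proteins, 9, 6 and 5 of the hnRNPs, 6, 2 and 3 of the Sm and snRNP proteins, and 7, 1 and 1 of the SF3 subunits. These are counts with TMM, against 40.0% higher and 43.0% lower over all genes, and the SR counts lie near those shares. Library totals left 4 of the 50 genes higher and 45 lower, so the split by class depends on scaling. Of the panel genes, Srsf1 (-0.27 ± 0.05), Srsf5 (-0.30 ± 0.06) and Hnrnpu (-0.34 ± 0.05) were lower under all 4 scalings. Hnrnpk (0.33 ± 0.05), Snrpd1 (0.32 ± 0.10), Snrpb (0.26 ± 0.08), Sf3a3 (0.36 ± 0.06), Sf3b4 (0.50 ± 0.09), Sf3b1 (0.15 ± 0.07) and Srsf10 (0.16 ± 0.06) were higher with TMM and below 0 with library totals. Srsf2 (0.06 ± 0.05) and Hnrnpa2b1 (0.02 ± 0.05) did not pass, and both were lower with library totals. Leaving out Con replicate 1 ended the call of Snrpb (0.19), and leaving out Con replicate 3 or LPS replicate 1 that of Srsf10 (0.13 and 0.13). The call of Sf3b1 was lost without any one of 10 libraries, at values from 0.10 to 0.16. With the replicate block the calls of Srsf10 (0.13) and Sf3b1 (0.10) were lost, as they were with no filter (0.14 and 0.13). That of Sf3b1 was also lost with the stricter filter (0.13) and with replicates 1 to 3 (0.13).

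Against Con, 17 of the 50 genes were higher in UVABs, 21 lower and 12 did not pass, and 18, 22 and 10 in STSABs. Over all genes 40.2% were higher and 42.4% lower in UVABs, and 40.0% and 42.6% in STSABs. Library totals left 2 higher and 46 lower in each AB group, against 20.1% higher and 68.4% lower over all genes in UVABs and 20.1% and 68.3% in STSABs, with the median of all genes at -0.74 in each, so only directions that held in all 4 scalings are given by name. Hnrnpc and Hnrnph2 were higher than Con under all 4 in both AB groups, and 19 genes were lower in UVABs and 19 in STSABs. How many of all genes kept a direction under all 4 is not given here. Srsf6 had the largest change of the SR genes, at -1.20 ± 0.05 in UVABs (adjusted p = 1.42e-15) and -1.19 ± 0.05 in STSABs (adjusted p = 1.63e-15). Hnrnpr (-1.28 ± 0.07 and -1.23 ± 0.07), Hnrnpu (-0.95 ± 0.05 and -0.95 ± 0.05), Hnrnpl (-0.82 ± 0.05 and -0.82 ± 0.05), Srsf1 (-0.66 ± 0.05 and -0.71 ± 0.05), Srsf2 (-0.65 ± 0.05 and -0.60 ± 0.05) and Hnrnpab (-0.64 ± 0.05 and -0.60 ± 0.05) were lower too, given for UVABs and then STSABs. Hnrnph2 was at 1.24 ± 0.08 and 1.24 ± 0.08, and Hnrnpc at 0.91 ± 0.05 and 0.91 ± 0.05. These comparisons use the same Con libraries as that of LPS. Of 6 genes listed as a check of the LPS response, 6 were higher and 0 lower than in Con in each AB group. Their summed CPM ran from 11490 to 14190 in UVABs and 11390 to 12830 in STSABs. In LPS it ran from 13730 to 15040 and in Con from 42.4 to 47.6. Of these 6 genes, 0 were higher and 5 lower in each AB group than in LPS. Their part in the differences was not tested.

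Ratios of the counts of 2 genes in the same library do not depend on library scaling. Pairs were picked after their values were seen, and the ratios are given as log2 means ± SD with no test. Counts depend on gene length, so a ratio is read only across groups. The ratio of Hnrnph2 to Hnrnph1 was 0.57 ± 0.06 in UVABs, 0.56 ± 0.05 in STSABs, 0.23 ± 0.08 in LPS and -1.14 ± 0.06 in Con. Con libraries stood apart from all the others, and AB libraries were above those of LPS. Hnrnpc over Hnrnpa1 was -0.15 ± 0.04 in UVABs, -0.17 ± 0.06 in STSABs, 0.09 ± 0.08 in LPS and -1.54 ± 0.03 in Con, so that the LPS libraries were highest and the Con libraries lowest.

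Srsf3 over Srsf5 was -0.23 ± 0.03 in UVABs, -0.23 ± 0.09 in STSABs, 0.28 ± 0.06 in LPS and -0.96 ± 0.06 in Con. Srsf7 over Srsf9 was 1.15 ± 0.09 in UVABs, 1.17 ± 0.22 in STSABs, 1.85 ± 0.16 in LPS and 0.52 ± 0.08 in Con. In both pairs the AB libraries lay between LPS and Con without overlap. Hnrnpul1 over Hnrnpu was 0.45 ± 0.07 in UVABs, 0.46 ± 0.17 in STSABs, -0.53 ± 0.03 in LPS and -0.52 ± 0.11 in Con. For this pair LPS and Con overlapped and the AB libraries lay above both. The ratio of Snrpc to Snrpa was 0.28 ± 0.09 in UVABs, 0.34 ± 0.17 in STSABs, 0.52 ± 0.10 in LPS and -0.58 ± 0.04 in Con. Hnrnpll over Hnrnpl ran from 0.03 to 0.82 in UVABs, 0.23 to 0.80 in STSABs, 0.92 to 1.23 in LPS and -0.55 to -0.35 in Con, the lowest AB values being those of the libraries numbered 2.

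**Figure D5:**
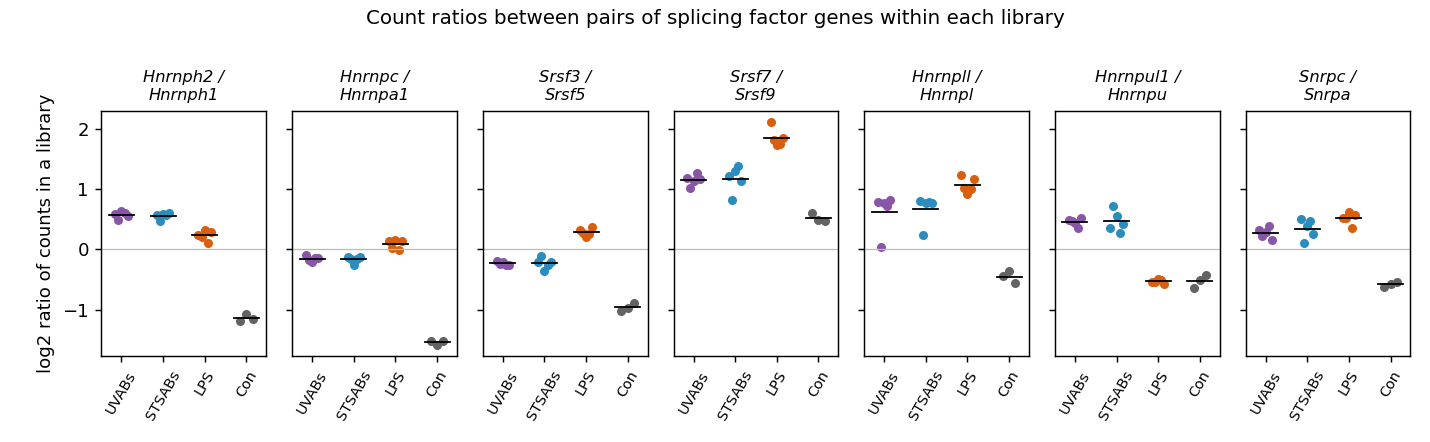
Log2 ratio of the counts of 2 genes (y axis) in each library of UVABs, STSABs, LPS and Con, for 7 pairs, with a line at each group's mean. Hnrnph2 over Hnrnph1 averages 0.57 in UVABs and -1.14 in Con, and Hnrnpul1 over Hnrnpu is above 0 in the AB libraries and below 0 in LPS and Con.

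Lists of other splicing genes were counted in the same fits, to be read against the shares over all genes of 28.6% higher and 28.8% lower in UVABs against LPS and 28.4% and 29.0% in STSABs against LPS. Of 56 other spliceosome components, 3 and 33 were higher and lower in UVABs than in LPS and 3 and 32 in STSABs. Among them Snu13, a protein of the U4 snRNP, was -0.72 ± 0.05 in UVABs and -0.65 ± 0.05 in STSABs, Prpf19, of the complex that activates the spliceosome, -0.80 ± 0.06 and -0.75 ± 0.06, and Dhx15, a helicase of spliceosome disassembly, -0.81 ± 0.07 and -0.81 ± 0.07. Of 29 other RNA-binding regulators 2 and 17 were higher and lower in UVABs and 1 and 18 in STSABs. The paraspeckle proteins Sfpq and Pspc1 were at -1.06 ± 0.06 and -0.81 ± 0.07 in UVABs, and at -1.02 ± 0.06 and -0.83 ± 0.07 in STSABs. Ewsr1 was at -0.67 ± 0.04 in UVABs and -0.69 ± 0.04 in STSABs. Nono, also a paraspeckle protein, did not pass in UVABs (0.07 ± 0.04). It averaged 553 CPM in UVABs, 547 in STSABs and 526 in LPS. Of 24 SR-like regulators and SR kinases the counts were 5 and 12 in UVABs and 5 and 12 in STSABs, with Tra2b, a partner of SR proteins, at -0.57 ± 0.05 and -0.55 ± 0.05, Scaf8 at -0.55 ± 0.05 and -0.58 ± 0.05 and Rnps1 at -0.39 ± 0.05 and -0.41 ± 0.05.

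Of 18 genes of snRNP assembly and import, 1 and 11 were higher and lower in UVABs and 1 and 10 in STSABs. Wdr77, which works with the methylase of Sm proteins, was -1.05 ± 0.10 in UVABs and -1.14 ± 0.11 in STSABs, Strap -0.54 ± 0.06 and -0.59 ± 0.06, and Gemin5, which recognises the small RNAs, -0.96 ± 0.10 and -0.82 ± 0.10. Of 15 genes of the exon junction complex and nonsense-mediated decay, the counts were 3 and 11 and 1 and 10, with Smg5 at -0.62 ± 0.05 and -0.61 ± 0.05, Upf1, the central helicase of the decay, at -0.45 ± 0.05 and -0.45 ± 0.05, and Smg8 at -0.54 ± 0.05 and -0.51 ± 0.05. Of 13 Sm-like LSM genes they were 1 and 3 and 1 and 2, with Lsm10, of the U7 snRNP, at 0.34 ± 0.07 and 0.29 ± 0.07, Lsm2 at -0.31 ± 0.10 and -0.49 ± 0.11 and Lsm6 at -0.23 ± 0.08 and -0.28 ± 0.08. These LSM counts lie below the shares over all genes.

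In LPS against Con the higher and lower genes numbered 31 and 10 of the spliceosome components, 16 and 9 of the RNA-binding regulators, 15 and 5 of the SR-like genes and kinases, 3 and 11 of snRNP assembly, 11 and 2 of the exon junction and decay genes and 5 and 5 of the LSM genes, against 40.0% and 43.0% over all genes. With library totals these became 4 and 48, 1 and 21, 2 and 21, 0 and 17, 3 and 10, and 0 and 12, against 19.0% and 70.6% over all genes. Genes that kept their direction under TMM, upper-quartile scaling and library totals included Tra2a (2.34 ± 0.06), the kinase Clk3 (1.13 ± 0.07), Nono (1.28 ± 0.05), Prpf38a (2.79 ± 0.09), Prpf38b (1.25 ± 0.07), Upf2 (1.25 ± 0.08) and Smg8 (0.98 ± 0.06), which rose. Srpk2, a kinase of SR proteins, fell (-1.90 ± 0.11), as did Mbnl3 (-2.13 ± 0.11), Prmt5 (-0.99 ± 0.07), Ddx20 (-0.93 ± 0.08), Gemin4 (-1.24 ± 0.11) and Lsm2 (-0.82 ± 0.10). The rises of Sart3 (0.73 ± 0.05), Lsm14a (0.66 ± 0.06) and Lsm12 (0.26 ± 0.06) did not hold with library totals, where Lsm12 was lower.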

How the data were processed

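The authors deposited raw estimated counts for each gene symbol and library. Per the labels' protocols, poly(A) RNA was captured on oligo(dT) beads, the second strand was marked with dUTP, and libraries were read from both ends on an Illumina NovaSeq. HISAT2 and mm39 are named in the submitters' processing notes. How reads were counted, on which strand and with which annotation is not given in the sources used here, and genes that overlap or lie antisense may share reads. Of the deposited values 6.35% were not whole, and counts were rounded before testing. No 2 libraries were identical.

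Groups came from the labels, in which UVABs replicates 4 and 5 are spelled in a shorter way. Genes were filtered with filterByExpr (12465 kept, with 99.97% of the counts), scaled by TMM and tested in 1 fit of all libraries by the quasi-likelihood method of edgeR (version 4.0.16, in R 4.3.3). P-values were adjusted over all genes by Benjamini-Hochberg at 0.05. Each SE is the absolute log2 fold change over the square root of F, and 95% intervals use it with 14 degrees of freedom. Between UVABs and STSABs, libraries with the same number deviated together (r from 0.14 to 0.69 in 5 pairs), and a fit with that number as a block also called 0 of the 50 genes. The test was checked on simulated counts in which few genes changed, as many up as down. Of changes of 1.25-fold it found 28% in LPS against Con, 46% in STSABs against LPS and 48% in UVABs against STSABs. At 1.5-fold these shares were 92%, 86% and 90%. Since so few genes changed, the check does not bear on how scaling moves the comparisons with Con.

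The genes, the lists of other genes and the tests were chosen with earlier results of these data known. Values in every library are given for the 5 largest changes in each direction among called genes of at least 5 CPM and for a panel that also held Snrpn, which was not analysed here. Of each other list up to 3 called genes with the smallest adjusted p are named, except that some are not reported here. The alternatives tried were scaling by DESeq2 size factors, by the upper quartile or by library totals, the tests of DESeq2 1.42.0 and limma-voom (limma 3.58.1), no filter or a stricter one (5 CPM in 3 libraries), only the groups compared, replicates 1 to 3, a replicate block, both AB libraries numbered 2 left out, and each library left out. Promoters were matched by symbol in RefSeq, whose build differs from that of the counts.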

Additional observations from a re-analysis of the deposited data

Results flagged for a closer look

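In the 81 groups of libraries checked for one library far from the rest, 7 stood out, and chance gives about 1 in 20. Hnrnpll had 75.6 CPM in UVABs replicate 2, against 130 to 134 in the other UVABs libraries, and 86.9 CPM in STSABs replicate 2, against 128 to 135. Both libraries are numbered 2. Hnrnph2 had 124 CPM in STSABs replicate 2, below the other STSABs libraries, and Srsf2 had 100.4 CPM in UVABs replicate 2, below 110.0 to 110.5 in its fellows. Hnrnpa1 was high in STSABs replicate 3 (338 CPM, against 295 to 305). In LPS, Hnrnpu was high in replicate 2 (262 CPM, against 251 to 254) and Sf3b1 low in replicate 3 (274 CPM, against 294 to 299).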

How the results depend on the processing

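Comparisons with Con depended on scaling. In LPS against Con, 8 genes were higher and 20 lower with upper-quartile scaling, and 4 and 45 with library totals. In UVABs against Con it was 6 and 32, then 2 and 46, and in STSABs against Con 6 and 29, then 2 and 46. With upper-quartile scaling, 30.8% of all genes were higher and 53.1% lower in UVABs than in Con, and 30.7% and 53.3% in STSABs. In LPS against Con, among genes past the threshold with TMM or with the other scaling, upper-quartile scaling turned Hnrnpa2b1 (-0.26), Hnrnpab (-0.11), Hnrnpd (-0.065), Sf3a1 (-0.026), Sf3b1 (-0.13), Snrpb (-0.013), Snrpf (-0.085), Srsf10 (-0.12) and Srsf2 (-0.22), and library totals turned Hnrnpa2b1 (-0.73), Hnrnpa3 (-0.39), Hnrnpab (-0.57), Hnrnpd (-0.53), Hnrnph3 (-0.66), Hnrnpk (-0.42), Hnrnpll (-0.35), Hnrnpm (-0.27), Hnrnpul2 (-0.45), Sf3a1 (-0.49), Sf3a2 (-0.38), Sf3a3 (-0.38), Sf3b1 (-0.59), Sf3b3 (-0.11), Sf3b4 (-0.25), Sf3b5 (-0.62), Sf3b6 (-0.32), Snrpb (-0.48), Snrpb2 (-0.63), Snrpd1 (-0.42), Snrpd2 (-0.27), Snrpd3 (-0.39), Snrpf (-0.55), Snrpg (-0.54), Srsf10 (-0.58), Srsf2 (-0.68) and Srsf4 (-0.46). Upper-quartile scaling also turned Hnrnph3 (-0.20), Sf3b5 (-0.15), Snrpb2 (-0.16) and Snrpg (-0.074), which passed under neither. Leaving out 1 library at a time gave 23 to 26 higher and 12 to 14 lower in LPS against Con, 5 to 7 and 23 to 25 in UVABs against LPS, 4 to 7 and 23 to 24 in STSABs against LPS, 15 to 18 and 19 to 21 in UVABs against Con, 16 to 18 and 18 to 22 in STSABs against Con, and 0 in UVABs against STSABs. Under any alternative, 8 genes lost a call and 3 gained one in UVABs against LPS, 5 and 2 in STSABs against LPS, and, scaling aside, 7 and 4 in LPS against Con. With replicates 1 to 3 only, the calls of Hnrnpll in LPS against Con (0.38) and of Hnrnpa2b1 in both AB groups against LPS (-0.12 in UVABs and -0.14 in STSABs) were lost. In the other comparisons, r between libraries with the same number ran from -0.14 to 0.21. In LPS and Con it was 0.14, 0.03 and 0.21 for replicates 1, 2 and 3. A fit with a replicate block made the higher and lower genes 25 and 15 in LPS against Con. It made them 7 and 25 in UVABs against LPS and 7 and 24 in STSABs against LPS. Against Con it made them 18 and 21 in UVABs and 17 and 21 in STSABs. Shares over all genes are not given here for the block or for fits that left out a library. The cause of these shifts was not tested.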
